A study of Mus musculus with 8 samples.

Results

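The 9 genes described here encode components of the podocyte slit diaphragm and of the cytoskeleton, apical membrane and transcription program of the podocyte. They were chosen by symbol, and all 9 were among the 22609 genes of the deposited count tables: Nphs1, Podxl, Wt1, Synpo, Magi2, Cd2ap, Actn4, Plce1 and Ptpro. RNA-Seq was performed on kidney cortex of 4 aged (30 months by the labels) and 4 young (5 months) untreated male C57BL6 mice, with a single library per mouse. The methods of the study state an older mean age for the aged mice than the labels do. The tissue was whole cortex, so the podocyte message was measured among that of all tubule, vessel and immune cells, and fewer podocytes and less RNA per podocyte cannot be told apart.

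Podocytes are the epithelial cells that cover the outer face of the glomerular capillaries. Their foot processes interlock, and the gaps between them are bridged by the slit diaphragm, a cell junction built around nephrin, the product of Nphs1. Inherited defects in several of these genes cause heavy loss of protein in the urine, and loss of podocytes is a known feature of glomerular aging. Cd2ap and Magi2 encode adaptors that tie the junction to the cell interior. Synpo and Actn4 encode proteins that bind and cross-link actin in the foot processes. Podxl encodes the charged apical sialomucin podocalyxin, Ptpro an apical receptor tyrosine phosphatase, Plce1 a phospholipase C, and Wt1 a transcription factor that maintains podocyte identity.

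Cd2ap and Actn4 are also expressed in many other cell types. Promoters were taken from RefSeq (GRCm38.p6) for the 6 of 9 members that matched, Magi2 with 2 starts, as 250 bases before to 50 after the start. Podxl, Wt1 and Synpo had no match. Printed below are Nphs1 and Ptpro, the pair with the highest correlation among the members compared with Nphs1, and Actn4 and Cd2ap, the widely expressed members, of which Cd2ap did not follow Nphs1. CG dinucleotides are in capitals.
Nphs1, chr7:30459808-30460107, plus strand: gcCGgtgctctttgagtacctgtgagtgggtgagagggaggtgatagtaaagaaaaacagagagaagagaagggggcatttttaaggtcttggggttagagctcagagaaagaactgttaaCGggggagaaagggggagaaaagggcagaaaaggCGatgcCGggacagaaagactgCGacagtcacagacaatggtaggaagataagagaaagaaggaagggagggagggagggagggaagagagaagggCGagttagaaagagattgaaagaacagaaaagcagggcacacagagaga
Ptpro, chr6:137252049-137252348, plus strand: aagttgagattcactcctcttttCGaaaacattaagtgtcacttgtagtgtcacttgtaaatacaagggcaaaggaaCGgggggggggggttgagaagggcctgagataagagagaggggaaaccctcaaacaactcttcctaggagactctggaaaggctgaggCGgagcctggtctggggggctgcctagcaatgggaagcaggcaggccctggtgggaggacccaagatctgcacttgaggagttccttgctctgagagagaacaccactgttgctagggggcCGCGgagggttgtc
Actn4, chr7:28962283-28962582, minus strand: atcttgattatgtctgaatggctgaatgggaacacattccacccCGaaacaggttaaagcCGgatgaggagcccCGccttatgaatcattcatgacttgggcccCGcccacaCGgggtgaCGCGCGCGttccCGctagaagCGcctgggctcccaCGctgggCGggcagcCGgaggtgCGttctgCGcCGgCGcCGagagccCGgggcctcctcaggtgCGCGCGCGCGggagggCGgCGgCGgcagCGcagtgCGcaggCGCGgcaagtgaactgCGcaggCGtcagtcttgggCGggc
Cd2ap, chr17:42876375-42876674, minus strand: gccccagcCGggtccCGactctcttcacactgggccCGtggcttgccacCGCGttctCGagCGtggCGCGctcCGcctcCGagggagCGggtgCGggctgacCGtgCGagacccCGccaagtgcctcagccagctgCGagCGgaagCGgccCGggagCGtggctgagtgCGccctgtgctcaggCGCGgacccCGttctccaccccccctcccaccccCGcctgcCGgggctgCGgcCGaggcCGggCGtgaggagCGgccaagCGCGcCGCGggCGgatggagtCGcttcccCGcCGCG

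The Nphs1 window held 6 CG dinucleotides, that of Ptpro 5 and that of Plce1 8, near the median of 7 over all 32851 promoters of this length. The Actn4 window held 35 and that of Cd2ap 41, more than 93.0% and 96.5% of all promoters respectively. The starts of Magi2 held 29 and 4. The GC box GGGCGG, searched on both strands, was in 3 of the 7 windows (Actn4, Cd2ap and the Magi2 start with 4 CG), and 35.7% of all promoters held it. The early-growth-response type motif GCGGGGGCG, which WT1 can bind, was in 0 of the 7 windows and in 2.91% of all promoters. TAATTA, a homeobox core of the kind LMX1B binds, was in 1 window, that of the same Magi2 start, and in 5.29% of all promoters. The GC box was added to the search after the data had been seen, and these matches describe letters only.

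In mm9, the build the authors counted on, Nphs1 lies on the plus strand of chromosome 7 from 31243334 to 31272242. Kirrel2, which encodes another nephrin family protein, starts 624 nt away on the opposite strand, and had only 1 to 3 counts per library. Prodh2, a hydroxyproline dehydrogenase gene, follows Nphs1 after 6398 nt on the same strand. Podxl lies on chromosome 6 (31469488 to 31513981), Wt1 on chromosome 2 (104966686 to 105013773), Magi2 on chromosome 5 (18732864 to 20210616) and Cd2ap on chromosome 17 (42929900 to 43013373). Actn4 lies on chromosome 7 (29678267 to 29747359), Plce1 on chromosome 19 (38598687 to 38859588), Ptpro on chromosome 6 (137200820 to 137413150) and Synpo on chromosome 18. The annotation places an antisense gene opposite Nphs1, listed at 0 counts in all libraries, and Capn12 opposite Actn4, with at most 5 counts. Counting was by strand.

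Gene counts summed to 14820804 to 19018543 pairs per library in aged mice and to 15152597 to 19821429 in young mice. In counts, the least abundant member in any library was Wt1, with 158 pairs in aged mouse 4. Levels are given as CPM, the counts of a gene relative to the TMM-scaled total of its library, and 13944 genes, all 9 members included, passed the filter on low counts. Aged mouse 1 stood apart in its proximal tubule markers. Its summed level of 9 proximal tubule markers was 9601 CPM, where the other 7 mice had between 20045 and 24148 CPM. All of these markers but Slc5a12 (439 CPM) were lowest in this mouse. Its summed thick limb and distal tubule level (5022 CPM) and collecting duct level (498 CPM) lay within the range of the other mice. These sums are carried by the most abundant genes. As the mean over the genes of a list, in log2 relative to the mean of all mice, aged mouse 1 was lowest in both, at -0.46 and -0.19. Calb1 (161 CPM) and Pvalb (1.52 CPM), for example, were lower in this mouse than in any other. All 9 members were well above the floor of 3 counts, at most 0.204 CPM, in every library.

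Per kilobase of exon, the members spanned a wide range of levels. Actn4 stood highest with 93.8 ± 11.1 CPM per kb in aged and 90.4 ± 4.56 in young mice (SD, n = 4). Podxl followed with 52.7 ± 12.002 and 51.8 ± 5.12, and Cd2ap with 42.7 ± 5.73 and 35.6 ± 1.11 CPM per kb. Podxl exceeded Cd2ap in 7 of 8 mice, and their ranges overlapped. Synpo was lower by a wide gap, with 8.93 ± 2.12 CPM per kb in aged and 8.84 ± 0.571 in young mice. Nphs1 had 5.89 ± 1.25 and 5.12 ± 0.550 CPM per kb. Magi2 (3.65 ± 0.779 and 3.18 ± 0.484) and Ptpro (3.55 ± 1.07 and 3.30 ± 0.537) could not be ordered, Magi2 being the higher in 3 of 8 mice. Wt1 had 2.43 ± 0.774 and 2.03 ± 0.339 CPM per kb, and Plce1 stood lowest with 1.62 ± 0.307 and 1.62 ± 0.157. In every mouse Synpo exceeded Nphs1, Nphs1 exceeded Magi2, Ptpro exceeded Wt1 and Wt1 exceeded Plce1, although the ranges of these neighbors over the mice overlapped. The length used was that of all GENCODE exons of a gene joined, while the counts were on RefSeq genes. It is the same in every mouse, so likeness between mice does not check it.

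The design asks which mRNAs differ between aged and young kidney cortex. None of the 9 podocyte genes was called changed by edgeR's quasi-likelihood test, for which the fold had to exceed 1.5 and the Benjamini-Hochberg adjusted p to lie under 0.05. Over all genes tested 2.06% were called, 1.17% higher and 0.889% lower in aged mice. At an unadjusted p below 0.05 the count was 1 of 9, Cd2ap, where 25.5% of all genes had such a p (13.4% higher and 12.1% lower in aged mice). With DESeq2 and with limma-voom (sample quality weights) the count of changed members was also 0, beside 6.26% and 3.46% of all genes. Each again had 1 of 9 at an unadjusted p below 0.05, beside 3697 and 3580 of all 13944 genes. The median log2 fold change of the members was 0.10, beside 0.03 for all genes tested.

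Slit diaphragm components came first. Nphs1 had 28.5, 36.4, 36.6 and 23.0 CPM in aged mice 1 to 4 and 26.4, 30.1, 28.2 and 23.3 CPM in young mice 1 to 4. Aged mice 2 and 3 lay above all young mice, and the groups overlapped. Aged mouse 4 was lowest, but nearly level with young mouse 4. The log2 fold change of Nphs1 was 0.20 (95% interval -0.15 to 0.56, adjusted p = 0.431). It ran from 0.11 without aged mouse 3 to 0.32 without aged mouse 4.

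Magi2, the scaffold, had 25.5, 38.8, 37.4 and 27.0 CPM in aged mice 1 to 4 and 25.0, 33.5, 29.3 and 24.4 CPM in young mice 1 to 4. The same aged mice 2 and 3 were highest. Its log2 fold change was 0.20 (95% interval -0.18 to 0.57, adjusted p = 0.477). It ran from 0.09 without aged mouse 2 to 0.30 without young mouse 2. Magi2 is also expressed outside the glomerulus.

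Cd2ap, the adaptor between nephrin and actin, was the only member whose groups did not overlap. Its values were 277, 211, 216 and 218 CPM in aged mice 1 to 4 and 201, 190.0, 187 and 190.3 CPM in young mice 1 to 4. All 4 aged mice lay above all 4 young mice, with aged mouse 1 far above the rest. Over all genes tested 18.9% showed groups that did not overlap, and 8.85% did so with the aged mice higher. The log2 fold change of Cd2ap was 0.26 (standard error 0.10, 95% interval 0.04 to 0.49), with an adjusted p of 0.149 from edgeR that did not pass the threshold. The exact permutation test on log2 CPM gave p = 0.0286, two-sided and unadjusted, the smallest that 4 against 4 mice allow. Groups that do not overlap always give this p, so it adds nothing to the lack of overlap. Without aged mouse 1, in which the proximal tubule markers were also lowest, the log2 fold change was 0.16 (adjusted p = 0.129). Without young mouse 2, 3 or 4 its unadjusted p was above 0.05 (0.0588, 0.0668 and 0.0596 by edgeR). The part of tubule content in the value of Cd2ap was not tested.

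The apical membrane genes gave fold changes near 0. Podxl had 283, 355, 319 and 201 CPM in aged mice 1 to 4 and 285, 324, 267 and 262 CPM in young mice 1 to 4. Aged mice held both its highest and its lowest value. The log2 fold change of Podxl was 0.02 (95% interval -0.35 to 0.40, adjusted p = 0.936). Podxl is also expressed by endothelium.

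Ptpro, the phosphatase, had 22.3, 33.3, 26.0 and 15.7 CPM in aged mice 1 to 4 and 22.7, 26.7, 23.3 and 17.8 CPM in young mice 1 to 4. Aged mouse 2 was highest and aged mouse 4 lowest of the 8 mice. Its log2 fold change was 0.10 (95% interval -0.39 to 0.59, adjusted p = 0.786).

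Of the genes for actin-binding proteins, Synpo had 89.3, 105, 89.5 and 56.8 CPM in aged mice 1 to 4 and 82.8, 92.1, 82.6 and 79.6 CPM in young mice 1 to 4. The young mice lay close together, and aged mouse 4 lay well below all others. The log2 fold change of Synpo was 0.01 (95% interval -0.36 to 0.39, adjusted p = 0.963).

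Actn4 had 408, 520, 517 and 440 CPM in aged mice 1 to 4 and 463, 482, 438 and 433 CPM in young mice 1 to 4. Here aged mouse 1, not aged mouse 4, was lowest. Its log2 fold change was 0.05 (95% interval -0.18 to 0.29, adjusted p = 0.771). It ran from 0.0032 without aged mouse 2 to 0.12 without aged mouse 1.

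Plce1, the phospholipase, had 16.1, 18.5, 15.9 and 11.4 CPM in aged mice 1 to 4 and 15.2, 17.4, 15.6 and 13.8 CPM in young mice 1 to 4. Its group means were 15.5 ± 2.93 and 15.5 ± 1.497 CPM (SD, n = 4), and its log2 fold change was -0.00 (95% interval -0.34 to 0.33, adjusted p = 0.987).

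Wt1, the transcription factor, had 19.8, 17.2, 14.6 and 8.61 CPM in aged mice 1 to 4 and 12.6, 15.4, 12.04 and 10.3 CPM in young mice 1 to 4. The aged values ran from the lowest to the highest of all 8 mice. The log2 fold change of Wt1 was 0.26 (95% interval -0.28 to 0.80, adjusted p = 0.518). Without aged mouse 4 it was 0.45 (adjusted p = 0.120), and without aged mouse 1 it was 0.09 (adjusted p = 0.832).

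**Figure D1:**
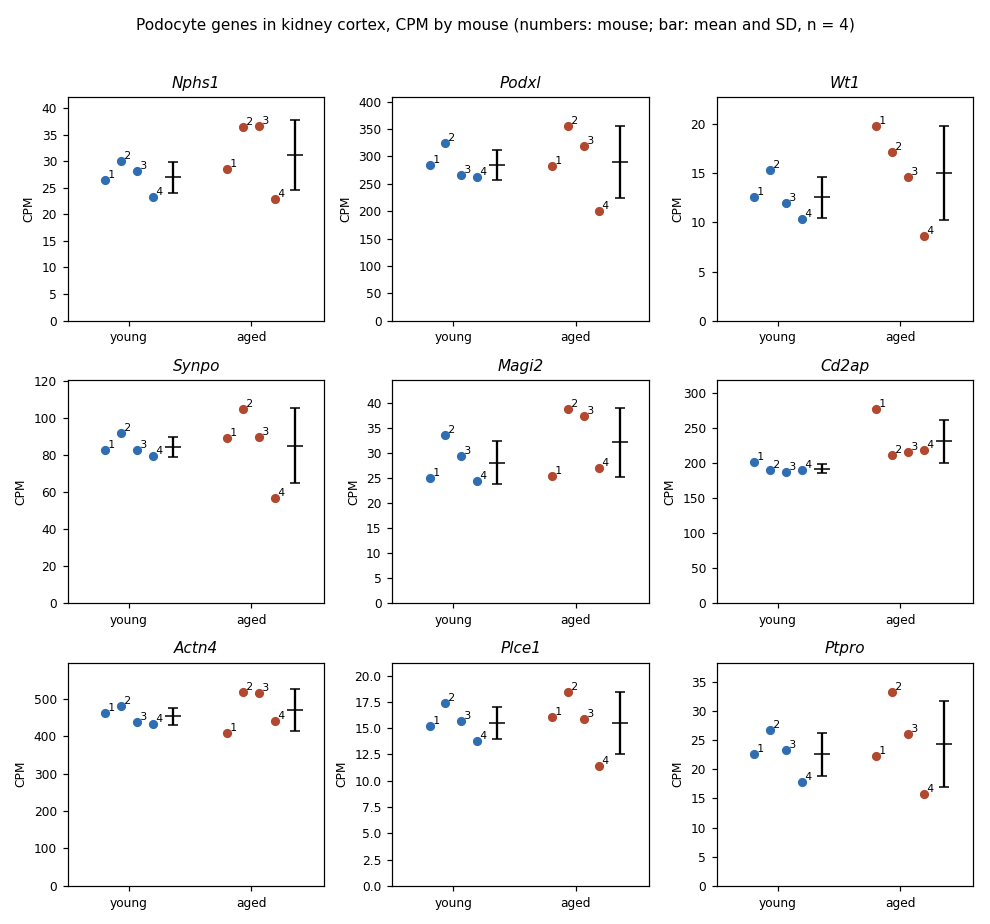
CPM (TMM-scaled) of the 9 members in each mouse, with young mice in blue and aged mice in red, mice numbered, and the mean and SD of 4 mice as a black bar. The groups overlap in 8 of the 9 genes, and in 6 of them aged mouse 4 is the lowest of the 8 mice.

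For 7 of the 9 members the 95% interval lay wholly within 1.5-fold in either direction (0.58 on the log2 scale), and over all genes tested 53.3% had such an interval. For Nphs1, Podxl, Synpo, Magi2, Cd2ap, Actn4 and Plce1 a difference of 1.5-fold or more was therefore outside the interval. Wt1 and Ptpro were measured less precisely, with upper limits of 0.80 and 0.59.

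**Figure D2:**
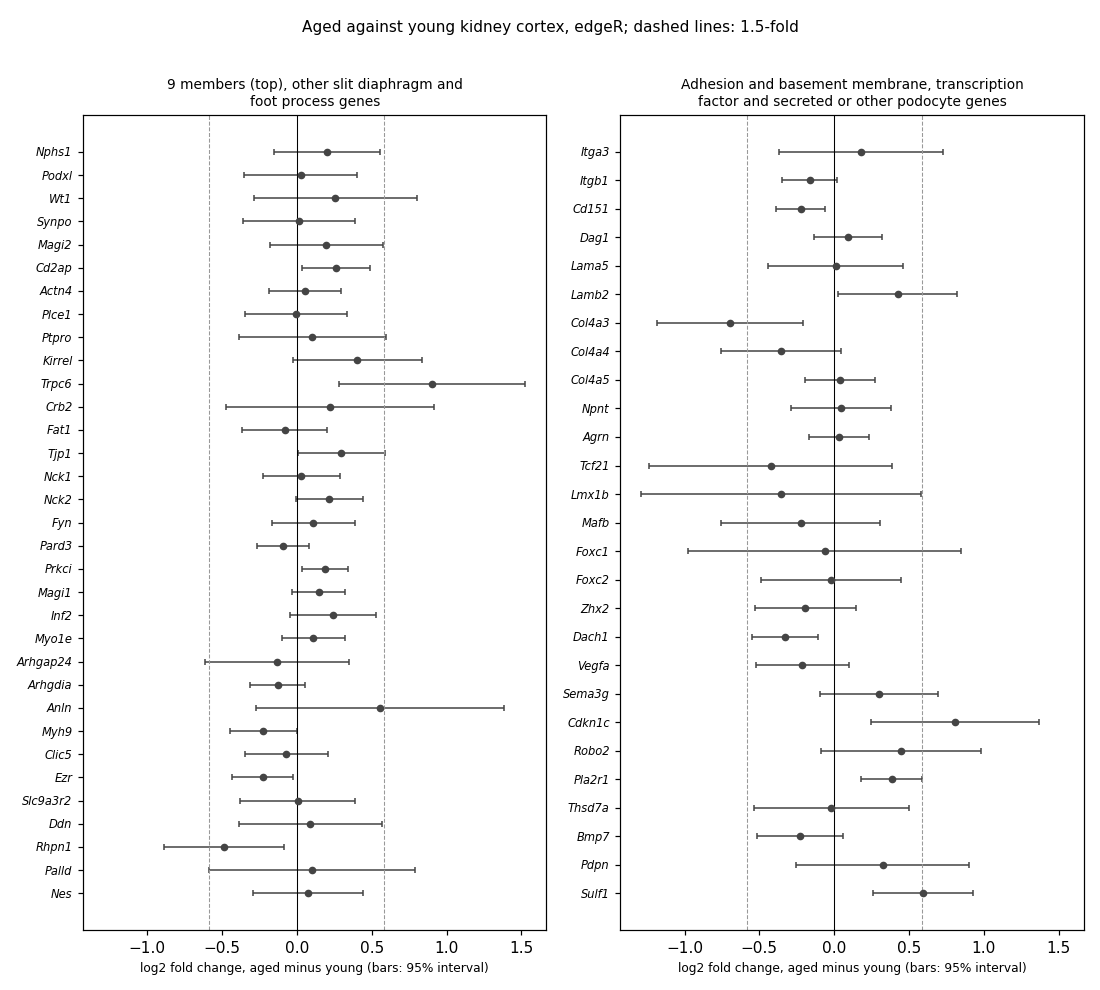
Log2 fold change, aged over young (x axis, with 95% intervals from edgeR) for the 9 members and for genes of a wider podocyte list. Dashed lines mark 1.5-fold, the members cluster around 0, and none of the genes shown passed the adjusted threshold.

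The spread between the aged mice was larger than that between the young mice in 9 of 9 members. The ratio of the SDs of log2 CPM, aged over young, had a median of 2.22 over the members and 2.03 over all genes tested, of which 83.4% had a larger SD in aged mice. A larger aged spread was thus found in most genes of these libraries. It was greatest for Synpo (0.38 in aged and 0.09 in young mice) and Cd2ap (0.18 and 0.04), and least for Magi2 (0.31 and 0.21).

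Of the 9 members, 6 were lowest in the same aged mouse. The share of all genes that were lowest in this mouse was not computed. Relative to the mean of the 8 mice on the log2 scale, aged mouse 4 was at -0.32 for Nphs1, -0.50 for Podxl, -0.63 for Wt1, -0.56 for Synpo, -0.42 for Plce1 and -0.54 for Ptpro. Aged mouse 2 was at 0.34, 0.32, 0.36, 0.33, 0.27 and 0.54 for the same genes. Among the young mice, young mouse 2 was highest and young mouse 4 lowest in each of these 6 genes. For Nphs1 young mouse 4 stood at -0.30, close to aged mouse 4. Actn4 and Cd2ap stood near 0 in aged mouse 4, at -0.07 and 0.06. The difference of aged mouse 4 was not limited to these genes. In counts over all compared genes, it lay nearer to each young mouse than to any other aged mouse.

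Some marker lists of other cell types were also low in aged mouse 4, and others were not. In aged mouse 4 the mean log2 deviation was -0.32 for 10 endothelial genes and -0.37 for 9 tested mesangial, pericyte and smooth muscle genes, whereas it was 0.12 for proximal tubule and 0.64 for leukocyte genes. In aged mouse 2 it was 0.13, 0.24, 0.31 and 0.31. The summed endothelial level ran from 707 CPM in aged mouse 4 to 1073 CPM in aged mouse 1, and from 802 to 869 CPM in the young mice. The summed mesangial, pericyte and smooth muscle level ran from 277 CPM in aged mouse 4 to 423 CPM in aged mouse 2, and from 342 to 378 CPM in young mice. Of this list Ren1 was listed at 0 in every library. None of the tested genes of these lists was called by edgeR, and 2 of 10 endothelial, 2 of 9 mesangial, pericyte and smooth muscle, 2 of 9 proximal tubule, 1 of 9 leukocyte, 4 of 8 thick limb and distal tubule, 4 of 6 fibroblast and 0 of 7 collecting duct genes had an unadjusted p below 0.05, beside 25.5% of all genes. The mean log2 deviation of the fibroblast list was -0.26, -0.26 and -0.29 in aged mice 1, 3 and 4, and 0.27 in aged mouse 2. Its genes did not move together. In aged mouse 1 the collagen genes Col1a1 (6.53 CPM), Col1a2 (36.2 CPM) and Col3a1 (10.95 CPM) were lowest of the 8 mice. Dcn (108 CPM) and Pdgfra (127 CPM) were highest there. The summed level of the list in this mouse was 292 CPM, within the young range of 237 to 319 CPM. Of the 4 fibroblast genes with an unadjusted p below 0.05, the collagen genes were lower in aged mice and Pdgfra was higher. How much glomerulus each piece of cortex held was not measured, and its part in these differences was not tested.

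**Figure D3:**
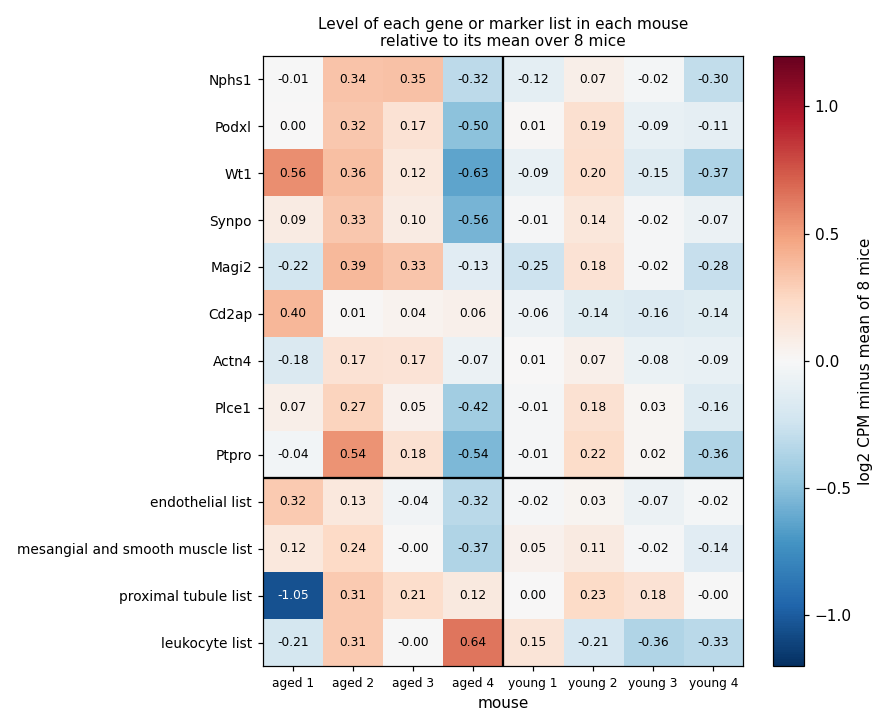
Log2 CPM of each member and of 4 marker lists (mean over the tested genes of each list) in each mouse, minus the mean over the 8 mice. Aged mouse 4 is low across Nphs1, Podxl, Wt1, Synpo, Plce1 and Ptpro and in the endothelial and mesangial lists, and aged mouse 1 is low in the proximal tubule list.

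The covariation was measured as the correlation of log2 CPM with Nphs1 over the 8 mice, for the 8 other members, with exact permutation p-values adjusted over the 9 relations that were computed, 1 of which is not reported here. All points share the scaling of their library. Ptpro had Pearson's r = 0.91 (exact permutation p = 0.00322, adjusted p = 0.0129) and Spearman's rho = 0.86 (p = 0.0107, adjusted p = 0.0241). Without aged mice 2 and 3, the 2 mice farthest from the median of Nphs1, its r was 0.96. Of the 13943 genes other than Nphs1, Ptpro ranked at 23 by r.

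Magi2 had r = 0.89 (exact permutation p = 0.00429, adjusted p = 0.0129) and rho = 0.79 (p = 0.0279, adjusted p = 0.0503), and r = 0.62 without those mice. Podxl had r = 0.85 (exact permutation p = 0.00399, adjusted p = 0.0129) and rho = 0.86 (p = 0.0107, adjusted p = 0.0241), and r = 0.80 without them. Plce1 had r = 0.80 (exact permutation p = 0.0113, adjusted p = 0.0203) and rho = 0.86 (p = 0.0107, adjusted p = 0.0241), and r = 0.92 without them. Synpo had r = 0.78 (exact permutation p = 0.00655, adjusted p = 0.0147) and rho = 0.90 (p = 0.00456, adjusted p = 0.0241), and r = 0.79 without them. These 4 genes ranked between 34 and 198 of 13943.

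Actn4 had r = 0.77 (exact permutation p = 0.0272, adjusted p = 0.0407) but rho = 0.62 (p = 0.115, adjusted p = 0.148), and its r was 0.24 without aged mice 2 and 3. Without aged mouse 2 or 3 alone its r was 0.67 and 0.68, and without aged mouse 1 it was 0.93. The r of Actn4 thus depended on which aged mice were included. Wt1 had r = 0.72 (exact permutation p = 0.0435, adjusted p = 0.0560) and rho = 0.76 (p = 0.0368, adjusted p = 0.0551), with r = 0.82 without aged mice 2 and 3 and 0.60 without aged mouse 4. Cd2ap had r = 0.12 (exact permutation p = 0.789, adjusted p = 0.789) and rho = 0.05 (p = 0.935, adjusted p = 0.935), with r = 0.09 without those mice, and ranked at 5451. Leaving out 1 mouse at a time kept r of Ptpro between 0.87 and 0.98, that of Magi2 between 0.83 and 0.93 and that of Podxl between 0.79 and 0.88, each with an exact permutation p of at most 0.0323. For Synpo and Plce1 the r without aged mouse 2 was 0.70 and 0.73 (exact permutation p = 0.0956 and 0.0655).

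**Figure D4:**
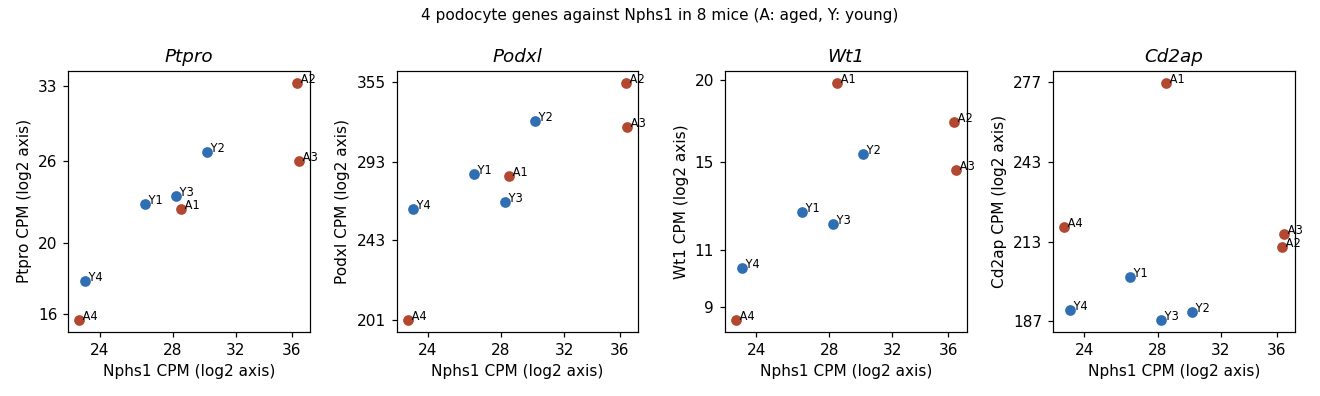
CPM of Ptpro, Podxl, Wt1 and Cd2ap (y axes, log2) against CPM of Nphs1 (x axes, log2) in the 4 aged (A, red) and 4 young (Y, blue) mice. Ptpro and Podxl follow Nphs1 over both groups (r = 0.91 and 0.85), and Cd2ap does not (r = 0.12).

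The 5 genes outside the members whose pattern over the 8 mice was most like that of Nphs1 were Spp2 (r = 0.98), Tmem20 (0.97), Thoc4 (0.96), Prodh2 (0.96) and Zfp128 (0.95). None of them is in the podocyte lists used here. Prodh2 is the downstream neighbor of Nphs1, at 69.4 CPM on average in aged and 61.3 CPM in young mice (log2 fold change 0.18, adjusted p = 0.596). With Spearman's rho as the measure, 3 of these 5 genes were again among the first 5.

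Each member was also set against the other 8, as its log2 CPM minus their mean. These differences are described without a test. Plce1 was the only member whose groups did not overlap on this scale, lower in all 4 aged mice. It stood at -2.20, -2.23, -2.32 and -2.27 in aged mice 1 to 4 and at -2.13, -2.12, -2.10 and -2.13 in young mice 1 to 4, a difference of -0.13. Of the genes outside the members, 4.98% had groups that did not overlap when set against the members' mean. For the other 8 members the aged minus young difference ran from -0.13 for Synpo to 0.17 for Cd2ap. Nphs1 was higher relative to the other members by 0.09, Podxl lower (-0.11), and Wt1 higher (0.12), from -1.87 in aged mouse 1 to -2.73 in aged mouse 4. With 1 mouse left out the difference of Nphs1 ran from 0.0411 (without aged mouse 3) to 0.14, and that of Cd2ap from 0.0514 (without aged mouse 4) to 0.31 (without aged mouse 2). The difference of Wt1 turned to -0.0423 without aged mouse 1 and was 0.25 without aged mouse 4. Those of Actn4 and Ptpro also changed sign, and the difference of Plce1 stayed between -0.15 and -0.11.

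The wider podocyte list of 53 genes was tested in the same fit. Of these, 52 were tested, Kirrel2 being too low, and 0 were called by edgeR at either an adjusted p below 0.05 alone or with the fold threshold. Over all genes tested 2.95% passed the adjusted p alone, 1.51% higher and 1.44% lower in aged mice. At an unadjusted p below 0.05 there were 13 genes, 7 higher and 6 lower in aged mice, near the 25.5% of all genes (13.4% higher and 12.1% lower). With the fold threshold DESeq2 called 3 of the list, beside 6.26% of all genes, and limma-voom 0, beside 3.46%. By the adjusted p alone DESeq2 passed 6 (Cd151, Cdkn1c, Col4a3, Dach1, Pla2r1 and Sulf1), beside 12.1% of all genes, and limma-voom 2 (Pla2r1 and Sulf1), beside 6.44%. The median log2 fold change of the list was 0.03, as for all genes tested.

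Of the 12 tested slit diaphragm genes, those with the smallest p were Trpc6, a cation channel, Prkci, a polarity kinase, and Tjp1, a junction scaffold. Their log2 fold changes were 0.90, 0.19 and 0.30 (adjusted p = 0.0954, 0.136 and 0.191). Trpc6 was at a low level, with 0.958 ± 0.230 CPM in aged and 0.504 ± 0.0792 CPM in young mice (SD, n = 4).

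Of 13 foot process cytoskeleton genes, Rhpn1, Ezr, the gene of ezrin, and Myh9, a nonmuscle myosin gene, had the smallest p. All 3 were lower in aged mice, with log2 fold changes of -0.49, -0.23 and -0.22 (adjusted p = 0.136, 0.159 and 0.192). Ezr and Myh9 averaged 506 and 774 CPM in young mice, beside 27.0 CPM for Nphs1. Which cells of the cortex gave the RNA of these and the other listed genes was not measured.

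Of 11 adhesion and basement membrane genes, Col4a3, a chain of the glomerular basement membrane collagen, had 296, 433, 275 and 496 CPM in aged mice 1 to 4 and 716, 692, 537 and 485 CPM in young mice 1 to 4. Only aged mouse 4 reached the young range. Col4a3 had a log2 fold change of -0.70 ± 0.22 (SE; adjusted p = 0.0983). Cd151, a tetraspanin, and Lamb2, a laminin chain, followed with -0.22 and 0.43 (adjusted p = 0.108 and 0.174).

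Of 7 transcription factor genes, Dach1 had 29.3 ± 2.07 CPM in aged and 36.8 ± 4.05 CPM in young mice (SD, n = 4). Its log2 fold change was -0.33 (adjusted p = 0.0913), and Zhx2 and Tcf21 followed with -0.19 and -0.42 (adjusted p = 0.433 and 0.473).

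Of 9 secreted and other podocyte genes, Pla2r1, the phospholipase A2 receptor gene, had 27.9, 32.7, 31.1 and 29.3 CPM in aged mice 1 to 4 and 20.6, 25.4, 23.3 and 23.4 CPM in young mice 1 to 4, so that the groups did not overlap. Pla2r1 differed by 0.38 ± 0.09 on the log2 scale (SE; adjusted p = 0.0572). Sulf1, a heparan sulfate endosulfatase gene, had 11.9, 12.3, 10.8 and 8.72 CPM in aged mice 1 to 4 and 7.21, 8.41, 6.80 and 6.50 CPM in young mice 1 to 4. All aged values lay above the young ones, and Sulf1 differed by 0.59 ± 0.15 on the log2 scale (SE; adjusted p = 0.0625). Cdkn1c, the gene of the cell cycle inhibitor p57, had 39.1, 47.5, 38.3 and 18.6 CPM in aged mice 1 to 4 and 20.6, 23.9, 19.9 and 17.6 CPM in young mice 1 to 4. Aged mouse 4 lay within the young range here, and Cdkn1c differed by 0.81 ± 0.25 on the log2 scale (SE; adjusted p = 0.0977). Without aged mouse 4 edgeR called 3 of the 52 genes tested, Cdkn1c, Sulf1 and Col4a3, beside 5.21% of all genes. DESeq2 called the same genes on all 8 mice, beside 6.26% of all genes.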

How the data were processed

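Kidney cortex RNA of 8 mice was depleted of ribosomal RNA and sequenced as stranded paired ends of 100 bases. The authors aligned the pairs to mm9 with TopHat2, counted them by strand on RefSeq genes with HTSeq and deposited raw counts per gene. The submitters' processing notes also name CASAVA 1.8.2 and SAMtools, and other versions are not given in the sources used here. The authors' combined table repeats these counts and was left aside. Pairs counted on no gene (20.0% to 29.9% of a library) were left out, as were pairs aligned to several places.

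Counts were tested in R 4.3.3 with edgeR 4.0.16 (quasi-likelihood, TMM, filterByExpr with a minimum count of 10), aged against young over all 8 libraries without covariate, and adjusted by Benjamini-Hochberg over 13944 genes. Log2 CPM used a prior count of 2. Standard errors are the size of the log2 fold change divided by the square root of F. Exact permutation tests were two-sided (scipy 1.17.1). Exon lengths and positions came from GENCODE for NCBIM37, which is mm9. Alternatives were DESeq2 1.42.0, limma-voom with sample quality weights (limma 3.58.1), other scalings, filters and thresholds, a replicate block, and each mouse left out. The leave-one-out of the correlations was added after seeing the data. Scripts were tested on simulated data.

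The members and lists were chosen with earlier results of these data known. The genes named are the members, up to 3 genes with the smallest p in each role group of the wider list, and the 5 genes most like Nphs1. One gene of the wider list is counted with it but not reported here. The study's methods give 4 mice per group, and p-values measure the spread between these mice. No library was a duplicate of another (lowest chi-square between 2 libraries of a group 8.92 per gene). By this measure aged mouse 4 lay nearer to the young mice (21.7 to 35.7) than to the other aged mice (43.6 to 149). Aged mouse 1 lay far from every other mouse (104 to 200). Intervals of fold changes include the spread between mice, and floors of counts cover counting error only.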

Additional observations from a re-analysis of the deposited data

Results flagged for a closer look

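By Dixon's test for a sample far from the others of its group, 1 of 62 groups of 4 mice was flagged, where chance gives about 1 in 20 (3.1 expected). The groups tested were the members' CPM, their levels relative to the other members, and the summed levels of the members, the podocyte lists and the marker lists. In Cd2ap, aged mouse 1 was highest at 277 CPM, and its gap to the next aged mouse was 0.892 of the aged group's range. The same mouse had the lowest summed proximal tubule level, and the part of tubule content in this value was not tested.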

How the results depend on the processing

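No member was called under any of the alternatives that were run, 16 fits per member and the adjusted p alone, and the smallest adjusted p of any member was 0.0729, for Cd2ap scaled to library size only. The sign was kept in 127 of 144 fits. The values of opposite sign were -0.0192 for Synpo with weighted limma-voom, 0.0363 and 0.11 for Plce1 with upper-quartile scaling and library size only, 0.00069 for Plce1 with at least 10 counts in every library, and, with the replicate block, -0.00086 for Podxl and -0.0174 for Synpo. Leaving out 1 mouse gave log2 fold changes from -0.0885 to 0.16 for Podxl, -0.10 to 0.16 for Synpo, -0.10 to 0.12 for Plce1 and -0.0838 to 0.26 for Ptpro, the lowest without aged mouse 2 and the highest without aged mouse 4, and r of Cd2ap with Nphs1 from -0.0332 (without young mouse 4) to 0.28. Without aged mouse 4, 3 members had an unadjusted p below 0.05 by edgeR (Cd2ap, Nphs1 and Wt1), beside 3988 of all 14066 genes tested. Without young mouse 2, 3 or 4 there were 0 members, beside 2793 of 14135, 2711 of 14144 and 2663 of 14129 genes.

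Of the wider podocyte list 1 gene was called with library size only (Sulf1), 3 with DESeq2, and 0 to 3 with 1 mouse left out, the 3 without aged mouse 4. Over all genes 287 were called, 488 with library size only, 873 with DESeq2, 483 with limma-voom, 130 with the replicate block, and 8 to 733 with 1 mouse left out. The lowest count was without young mouse 1 and the highest without aged mouse 4, and each mouse left out moved the count by over 1.5 times. With library size only the median over all genes went from 0.03 to 0.14, that over the members from 0.10 to 0.22, and the share of higher calls from 56.8% to 75.4%. Among the genes most like Nphs1, 3 of 5 were shared between Pearson's r and Spearman's rho. The cause of these differences was not tested.

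Same-numbered aged and young mice are different animals. Their deviations correlated at 0.21, 0.04, 0.20 and -0.03 for numbers 1 to 4, and 3 of the 4 aged mice correlated best with their own number. The labels do not pair the mice, and how often chance would give such matches was not tested. The replicate block left 0 members called and 130 genes in all. Each group has 4 mice, which limits the precision of Wt1 and Ptpro most.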
